A study of Mus musculus with 9 samples.

Results

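Interferon-stimulated genes were followed across mouse normal thymus, thymus tumors and thymus tumors labelled as XIST resistant. The set held 34 genes named by symbol, out of 18193 genes with a probe set of their own on the Affymetrix Mouse430_2 array. A probe set belonged to a member when the platform's gene table gave it that member as its single symbol. This found 46 probe sets for 32 members. The only probe set of Isg15 was shared with a second symbol, Gm9706, and none was listed for Ifi44, so both are named here without a value. Mx2 stayed at signals of 1.67 to 34.9 on the 9 arrays and did not pass the filter on low values, which left 31 members among 11671 tested genes. That filter kept a probe set when at least 3 of the 9 arrays reached the array's own median signal.

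Each of the 3 groups held 3 arrays of total RNA from whole tissue. XIST is a noncoding RNA known for its role in X inactivation, and the labels do not say how resistance to it was defined. Strain, age, sex, genotype, any transgene or treatment, and whether each array stands for an animal of its own, are not stated in the labels. The p-values therefore rest on the spread among arrays within groups, and this spread may be technical. It was pooled over all 3 groups and drawn toward that of other genes of like signal. Arrays of the third group thus enter each comparison. Since tissue was measured in bulk, fewer cells of a type and less RNA per cell cannot be told apart.

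Interferons are cytokines of antiviral defence. Type I interferons bind the receptor IFNAR and interferon gamma binds the receptor IFNGR, and both signal through Janus kinases to STAT proteins. A complex that holds STAT2 and IRF9 binds the interferon-stimulated response element in front of its target genes, and the gamma-activated site is a DNA element of the response to interferon gamma. In the thymus, interferon genes are also expressed without infection, and medullary epithelial cells and dendritic cells are known sources. The products of the target genes sense foreign RNA, block translation or degrade RNA, hold back budding virus, and attack the vacuoles of intracellular microbes.

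The response element was searched as GAAA, any 2 bases, GAAA on both strands in the 250 bases before the first annotated start in RefSeq's promoter windows of build GRCm38.p6. Below are the matches, in capitals, with their flanks, for all 12 tested members with a match there. Of these, 8 were called lower than normal thymus in both tumor groups, Gbp2 was called in resistant tumors only, and Stat2, Gbp3 and Irgm1 were called in neither. Each is written 5′ to 3′ on the strand of its gene, so a match on the opposite strand reads TTTC, any 2 bases, TTTC, and overlapping matches run together in 1 stretch of capitals.
Ifit1: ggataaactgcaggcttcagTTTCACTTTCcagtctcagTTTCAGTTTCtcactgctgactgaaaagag
Ifit3: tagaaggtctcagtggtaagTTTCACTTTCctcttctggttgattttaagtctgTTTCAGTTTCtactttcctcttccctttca
Trim30a: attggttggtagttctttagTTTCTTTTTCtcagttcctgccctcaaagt
Oas1a: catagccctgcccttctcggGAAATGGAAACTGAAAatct
Rsad2: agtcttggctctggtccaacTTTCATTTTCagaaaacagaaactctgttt
Bst2: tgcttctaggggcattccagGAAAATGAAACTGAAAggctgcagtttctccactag
Igtp: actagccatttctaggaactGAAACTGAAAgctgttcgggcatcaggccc
Irgm2: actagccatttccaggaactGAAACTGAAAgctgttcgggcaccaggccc
Gbp2: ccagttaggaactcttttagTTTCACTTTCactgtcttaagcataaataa
Stat2: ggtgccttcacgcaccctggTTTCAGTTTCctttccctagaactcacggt
Gbp3: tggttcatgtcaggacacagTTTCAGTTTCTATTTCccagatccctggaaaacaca
Irgm1: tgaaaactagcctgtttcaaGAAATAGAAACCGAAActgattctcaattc
All of these windows lie upstream of the start, outside the transcript. On the plus strand, the window of Ifit1 is chr19:34640765-34640833, that of Ifit3 chr19:34583353-34583436, that of Igtp chr11:58199502-58199551, that of Irgm2 chr11:58214893-58214942, that of Gbp2 chr3:142620584-142620633, that of Stat2 chr10:128270256-128270305 and that of Gbp3 chr3:142559979-142560034. On the minus strand, the window of Trim30a is chr7:104465200-104465249, that of Oas1a chr5:120907526-120907565, that of Rsad2 chr12:26456543-26456592, that of Bst2 chr8:71537567-71537622 and that of Irgm1 chr11:48871421-48871470. Ifit1 and Ifit3 each hold 2 separate matches. The windows of Igtp and Irgm2, which lie near each other on chromosome 11, differ at 2 of 50 bases.

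Values are MAS5 signals in arbitrary units, compared as log2 after values under 1 were set to 1. Array medians were 13.9 to 25.8. The arrays fell into a set of 4 with poly-A spike-in control signals of 2.01 to 2.95 (normal thymus 1, tumor 1, resistant tumors 1 and 2) and a set of 5 with spike-in signals of 141 to 237 (the remaining arrays). Array medians were higher in the set without spike-in signal (23.6 to 25.8) than in the set with it (13.9 to 17.8). Each set held all 3 groups, and values within the sets are given where they bear on a result. The set without spike-in signal held 1 normal and 1 tumor array, and the set with it held 1 resistant array. A value within a set can thus rest on 1 array of a group. The ratio of the 3' to the 5' probe set of Actb, a sign of RNA integrity, was 1.63, 1.91 and 1.91 in normal thymus, 1.92, 3.16 and 1.91 in tumors and 1.96, 1.98 and 2.64 in resistant tumors. All 3 resistant arrays lay above the normal arrays, and tumor 2 and resistant tumor 3 were the highest. The part of this ratio in the results was not tested. Precision is limited by having 3 arrays in each group.

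Tumors had lower signals than normal thymus for the IFIT family, for Oasl2, for antiviral effectors and for several interferon-inducible GTPases. Of the 31 tested members, 14 fell and Usp18 rose by limma at an adjusted p under 0.05, and 16 were not called. Among all tested genes 42.4% were called in this comparison, 19.1% lower and 23.3% higher, so the members' count in both directions together lies near the background while its split by direction does not follow it. The median log2 change of the members was -0.73, against 0.05 for all tested genes. The members' median was -0.88 in the arrays lacking spike-in signal, which is tumor 1 against normal thymus 1 alone, and -0.78 in those carrying it. In 19 members every tumor array lay below every normal array (25.2% of all tested genes), and in 1, Usp18, above (30.1%), which makes 20 of 31 beside 55.3% of all tested genes. Blocking on the spike-in set, the model called 19 members lower and 2 higher, 21 of 31 in all, where it called 26.1% of all tested genes lower, 32.6% higher and 58.7% in either direction.

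Resistant tumors showed lower members in the same families. Against normal thymus, 14 of 31 tested members fell, none rose and 17 were not called, where 43.3% of all tested genes were called, 20.2% lower and 23.1% higher. By an unadjusted p under 0.05, 4 of the 17 others passed. No share of all tested genes was taken at that threshold, so this count is not read as a result about the members. The median log2 change was -0.70, against 0.06 for all tested genes, and it was -0.92 in the arrays lacking spike-in signal and -0.90 in those carrying it. All 3 resistant arrays lay below all 3 normal arrays in 18 members (25.7% of all tested genes) and above them in none (28.9%; 54.6% in either direction). Blocking on the spike-in set, the model called 19 members lower (26.8% of all tested genes) and none higher (32%; 58.8% in either direction), and the median was -0.81. Both comparisons share the 3 normal arrays, so their values are set side by side below and are not independent of each other. Each change below is on the log2 scale relative to normal thymus with its SE (n = 3 arrays per group), and adjusted p-values are from limma over all tested genes.

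**Figure D1:**
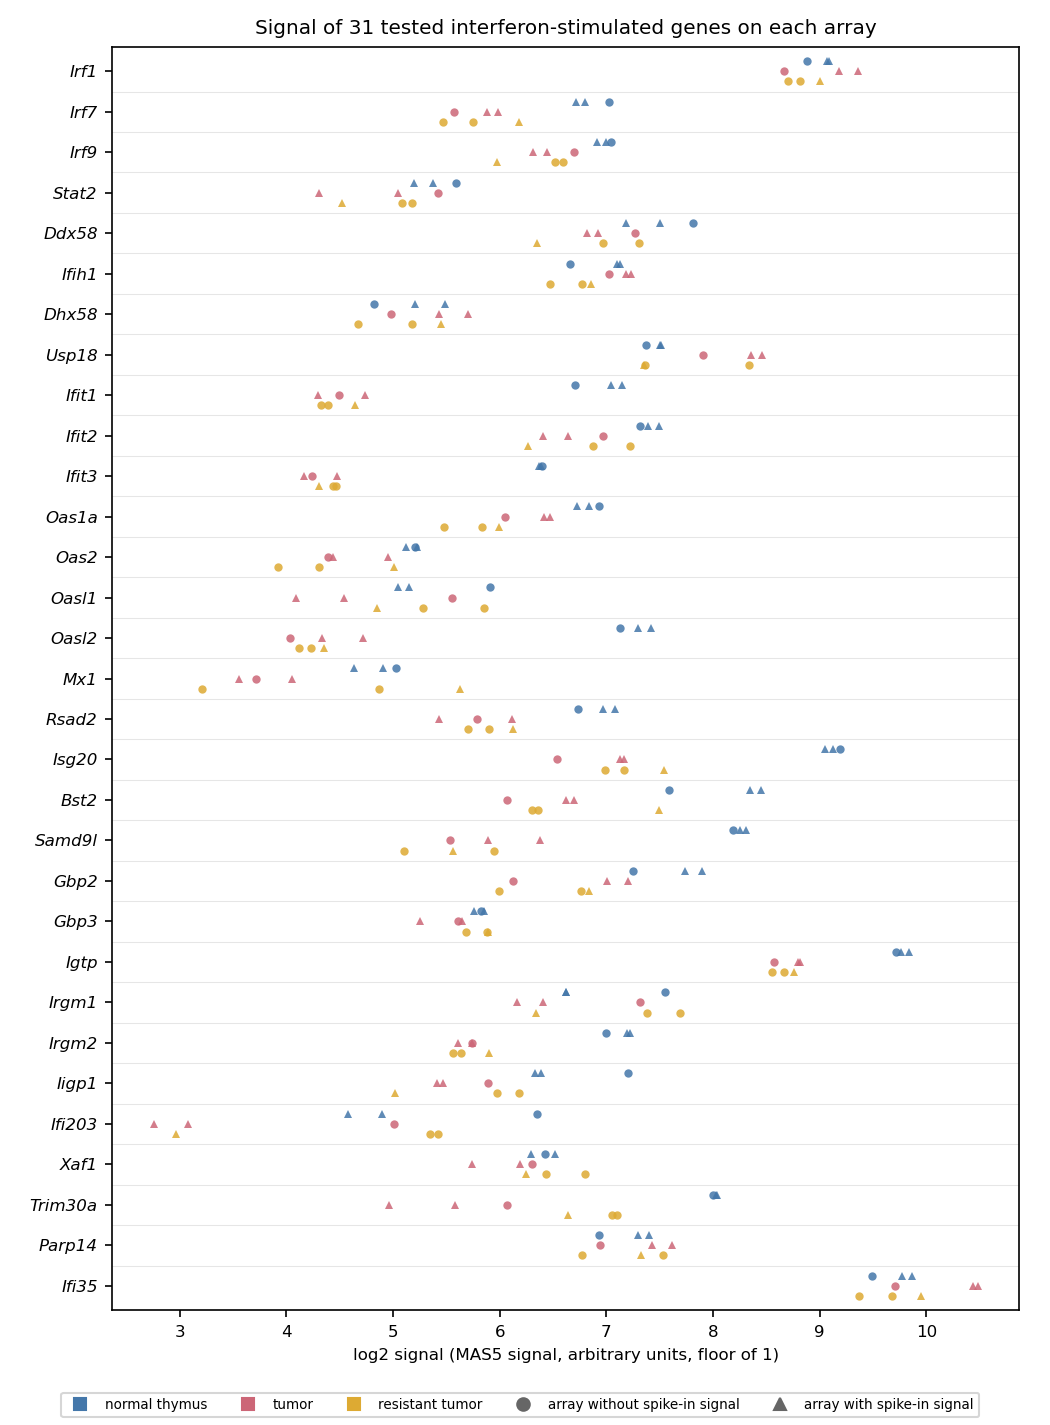
Log2 signal (arbitrary units) of each tested member on each of the 9 arrays, coloured by group, with circles for arrays without and triangles for arrays with spike-in signal. For Oasl2, Ifit1, Ifit3, Isg20, Samd9l, Irgm2 and Trim30a all tumor and resistant tumor arrays lie below all normal arrays, while Irf1, Parp14 and Dhx58 overlap.

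Of the 4 transcription regulators, Irf7 fell in both tumor groups, Irf9 fell in resistant tumors, and Stat2 and Irf1 were not called. Irf7, the factor that drives type I interferon genes, had signals of 130.3, 105 and 111 in normal thymus, 47.5, 58.9 and 63.4 in tumors and 44.4, 53.9 and 72.7 in resistant tumors. Each tumor array of either group lay below the lowest normal array. The change was -1.03 ± 0.21 (adjusted p = 0.00345) in tumors and -1.04 ± 0.21 (adjusted p = 0.00332) in resistant tumors. Irf9, the DNA-binding subunit of the STAT complex, read 132, 128 and 120.4 in normal thymus, 104, 79.5 and 87.1 in tumors and 96.5, 91.9 and 62.8 in resistant tumors. The tumor groups lay below normal thymus without overlap, by -0.50 ± 0.19 (adjusted p = 0.0573) and -0.62 ± 0.19 (adjusted p = 0.0236), so that Irf9 was called in resistant tumors. This call was lost without normal thymus 1, 2 or 3 or without resistant tumor 3 (adjusted p = 0.0550 to 0.0716), and in tumors Irf9 was called without tumor 1, resistant tumor 1 or resistant tumor 3 (adjusted p = 0.0176 to 0.0497). Blocking on the spike-in set called Irf9 lower in both (adjusted p = 0.00738 and 0.00102). Stat2, the partner of IRF9, had log2 differences of -0.46 ± 0.32 (adjusted p = 0.278) in tumors and -0.46 ± 0.32 (adjusted p = 0.278) in resistant tumors. Under that block it was called lower in resistant tumors (-0.64, adjusted p = 0.0378). Irf1, a factor induced by interferon gamma, had signals of 473, 545 and 539 in normal thymus, 407, 579 and 658 in tumors and 451, 417 and 513 in resistant tumors, with overlapping groups and changes of 0.05 ± 0.17 and -0.17 ± 0.17.

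None of the 3 cytosolic RNA sensors was called against normal thymus. Ddx58, which encodes RIG-I, had signals of 225, 181 and 145 in normal thymus, 154, 113 and 121 in tumors and 158, 125 and 81.7 in resistant tumors. The highest tumor and resistant arrays reached into the normal range, and the changes were -0.50 ± 0.26 (adjusted p = 0.147) in tumors and -0.62 ± 0.26 (adjusted p = 0.074) in resistant tumors. When the model blocked on the spike-in set, it was called lower in both (adjusted p = 0.0112 and 0.00088). Without resistant tumor 1 it was called in resistant tumors (-0.84, adjusted p = 0.0270). Ifih1, the gene of the long-RNA sensor MDA5, had log2 differences of 0.19 ± 0.17 and -0.26 ± 0.17, and Dhx58, the gene of the regulator LGP2, had 0.20 ± 0.29 and -0.07 ± 0.29.

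Usp18, which removes ISG15 from proteins and dampens signalling at the type I receptor, was the only member called higher in this fit. It had signals of 165, 182 and 182 in normal thymus, 239.9, 328 and 352 in tumors and 323, 165 and 163 in resistant tumors. All 3 tumor arrays lay above normal thymus, whereas only resistant tumor 1 did so among the resistant arrays. The changes were 0.78 ± 0.26 (adjusted p = 0.0338) in tumors and 0.22 ± 0.26 (adjusted p = 0.519) in resistant tumors. The call in tumors was lost without any 1 of the normal arrays or without tumor 2 or 3 (adjusted p = 0.0727 to 0.115), and it held in 11 of 20 alternative settings. The difference between resistant tumors and tumors was -0.56 ± 0.26 (adjusted p = 0.7).

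The IFIT family, which binds foreign RNA and blocks its translation, fell together in tumors. Ifit1 had signals of 104, 141 and 132 in normal thymus, 22.5, 26.6 and 19.6 in tumors and 20, 21.0 and 25.01 in resistant tumors. Both tumor groups lay far below the lowest normal array and overlapped each other. Its change was -2.46 ± 0.22 (adjusted p = 2.28e-05) in tumors and -2.51 ± 0.22 (adjusted p = 2.11e-05) in resistant tumors. Ifit3, with signals of 84.3, 83.9 and 82.6 in normal thymus, 18.9, 18.0 and 22.2 in tumors and 22.1, 21.6 and 19.8 in resistant tumors, showed the same separation. Its change was -2.09 ± 0.20 (adjusted p = 3.87e-05) in tumors and -1.98 ± 0.20 (adjusted p = 5.34e-05) in resistant tumors. In both genes some tumor arrays lay below the array median. Ifit2 had signals of 159.5, 179.9 and 168 in normal thymus, 125, 85.1 and 99.8 in tumors and 149.7, 117 and 76.9 in resistant tumors, which is a smaller gap, with no overlap with normal thymus. The change of -0.73 ± 0.24 (adjusted p = 0.0325) in tumors passed the test and that of -0.61 ± 0.24 (adjusted p = 0.0622) in resistant tumors did not. Without any 1 of the normal arrays or without tumor 2 or 3 the call in tumors was lost (adjusted p = 0.0598 to 0.116), and without resistant tumor 1 Ifit2 was called in resistant tumors (adjusted p = 0.0171). It was also called there when blocking on the spike-in set (-0.73, adjusted p = 0.00769).

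Among the oligoadenylate synthetase family, whose enzymes activate RNase L, Oasl2 had the largest change of all members. Its signals were 140.2, 158 and 171 in normal thymus, 16.3, 26.3 and 20.1 in tumors and 18.7, 17.4 and 20.4 in resistant tumors. All tumor arrays of both groups lay far below normal thymus, some of them under the array median. The change was -2.92 ± 0.22 (adjusted p = 1.01e-05) in tumors and -3.05 ± 0.22 (adjusted p = 8.53e-06) in resistant tumors. Oas1a, an oligoadenylate synthetase, had signals of 122, 106 and 115 in normal thymus, 66.3, 88.8 and 85.5 in tumors and 57.2, 44.7 and 63.7 in resistant tumors, in which the 3 groups did not overlap. Its change was -0.52 ± 0.18 (adjusted p = 0.0453) in tumors and -1.06 ± 0.18 (adjusted p = 0.0014) in resistant tumors. The call in tumors was lost without any 1 of the normal or tumor arrays or without resistant tumor 1 (adjusted p = 0.0509 to 0.128), and it held in 8 of 19 settings. Oas2 and Oasl1 were not called, with changes of -0.59 ± 0.32 and -0.77 ± 0.32 for Oas2 and -0.64 ± 0.42 and -0.04 ± 0.42 for Oasl1. Oasl1, an OAS-like protein that limits Irf7 translation, read 59.9, 33.1 and 35.5 in normal thymus, 46.8, 17.1 and 23.2 in tumors and 38.9, 57.8 and 28.9 in resistant tumors. Normal thymus 1, tumor 1 and resistant tumors 1 and 2, the arrays without spike-in signal, were the highest of their groups. Oasl1 was called in tumors when blocking on the spike-in set (-0.64, adjusted p = 0.0316) and without tumor 1 (-1.05, adjusted p = 0.0481), and Oas2 in resistant tumors without resistant tumor 3 (-1.07, adjusted p = 0.0186).

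Of the other antiviral effectors, Isg20, Samd9l, Bst2 and Rsad2 fell in both tumor groups and Mx1 was not called. Isg20, an RNA exonuclease, had signals of 586, 530.3 and 559 in normal thymus, 92.6, 139.6 and 143 in tumors and 127, 144 and 186 in resistant tumors. The tumor groups lay below normal thymus with a wide gap. Its change was -2.18 ± 0.20 (adjusted p = 2.55e-05) in tumors and -1.89 ± 0.20 (adjusted p = 6.19e-05) in resistant tumors. Samd9l, an interferon-induced restriction factor, had signals of 291, 317 and 305 in normal thymus, 46.2, 59.3 and 83.4 in tumors and 61.7, 34.4 and 47.4 in resistant tumors and likewise no overlap. Its change was -2.31 ± 0.25 (adjusted p = 8.78e-05) in tumors and -2.71 ± 0.25 (adjusted p = 3.49e-05) in resistant tumors. Bst2, the tetherin gene, had signals of 193, 351 and 325 in normal thymus, 67.1, 98.5 and 104 in tumors and 82.3, 78.9 and 180.2 in resistant tumors. Resistant tumor 3 came close to normal thymus 1, the lowest normal array. The change was -1.67 ± 0.35 (adjusted p = 0.00377) in tumors and -1.41 ± 0.35 (adjusted p = 0.00905) in resistant tumors. Bst2 is also a surface marker of plasmacytoid dendritic cells, a type I interferon source whose markers are given below. Rsad2, which encodes viperin, had signals of 106, 135 and 125 in normal thymus, 55.1, 69.5 and 43.2 in tumors and 59.8, 52.1 and 69.6 in resistant tumors. These groups too were apart from normal thymus, by -1.15 ± 0.21 (adjusted p = 0.00176) in tumors and -1.02 ± 0.21 (adjusted p = 0.00341) in resistant tumors. Mx1, a dynamin-like GTPase against influenza viruses, had signals of 32.7, 24.8 and 30.0 in normal thymus, 13.1, 16.6 and 11.8 in tumors and 9.26, 29.1 and 49.5 in resistant tumors. All tumor arrays lay below normal thymus, but the resistant arrays spanned the whole range, and the changes were -1.08 ± 0.54 (adjusted p = 0.133) in tumors and -0.29 ± 0.54 (adjusted p = 0.696) in resistant tumors. Without resistant tumor 1, Mx1 was called in tumors (adjusted p = 0.0199).

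The 6 guanylate-binding and immunity-related GTPases, which act on the vacuoles of intracellular microbes, divided. Igtp had signals of 840.2, 918 and 869 in normal thymus, 379.9, 452 and 444 in tumors and 375, 405 and 432 in resistant tumors. The tumor groups overlapped each other below normal thymus. Its change was -1.05 ± 0.11 (adjusted p = 5.93e-05) in tumors and -1.12 ± 0.11 (adjusted p = 4e-05) in resistant tumors. Irgm2 had signals of 128, 146 and 149 in normal thymus, 53.5, 48.9 and 53.3 in tumors and 49.7, 47.3 and 59.7 in resistant tumors and showed the same order. Its change was -1.44 ± 0.15 (adjusted p = 7.81e-05) in tumors and -1.44 ± 0.15 (adjusted p = 7.76e-05) in resistant tumors. Iigp1 had log2 differences of -1.05 ± 0.34 (adjusted p = 0.0302) in tumors and -0.92 ± 0.34 (adjusted p = 0.0514) in resistant tumors. Its call in tumors was lost without normal thymus 1 or tumor 2 or 3 (adjusted p = 0.0881 to 0.108), and without resistant tumor 1 it was called in resistant tumors (adjusted p = 0.0320). Blocking on the spike-in set also called it there (-1.18, adjusted p = 0.000177). Gbp2 had log2 differences of -0.85 ± 0.32 (adjusted p = 0.0579) in tumors and -1.09 ± 0.32 (adjusted p = 0.021) in resistant tumors. The call in resistant tumors was lost without normal thymus 2 or 3 or resistant tumor 2 (adjusted p = 0.0662 to 0.0802), and in tumors Gbp2 was called without normal thymus 1, tumor 3 or resistant tumor 2 (adjusted p = 0.0421 to 0.0474) and when blocking on the spike-in set (adjusted p = 0.00358).

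Gbp3 and Irgm1 were not called. Gbp3 had signals of 56.8, 57.8 and 54.2 in normal thymus, 48.8, 50.2 and 38.0 in tumors and 58.8, 51.4 and 59.4 in resistant tumors, a narrow range in all groups, and changes of -0.31 ± 0.18 and 0.00 ± 0.18. Irgm1 had signals of 188, 98.6 and 98.5 in normal thymus, 159, 71.5 and 84.6 in tumors and 207, 167 and 80.9 in resistant tumors. In Irgm1 the arrays without spike-in signal were the high ones in each group, and the changes were -0.31 ± 0.42 and 0.21 ± 0.42.

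In the last group of members, Trim30a fell and the rest were not called at their brightest probe sets. Trim30a, a tripartite-motif protein known to limit Toll-like receptor signalling, had signals of 256, 261 and 262 in normal thymus, 67.0, 31.3 and 47.8 in tumors and 133, 138 and 99.5 in resistant tumors. The 3 groups did not overlap, with normal thymus highest and tumors lowest. Its change was -2.48 ± 0.25 (adjusted p = 5.59e-05) in tumors and -1.09 ± 0.25 (adjusted p = 0.00669) in resistant tumors. Ifi203, a nuclear DNA-binding protein gene, had signals of 81.8, 29.8 and 23.9 in normal thymus, 32.2, 6.75 and 8.46 in tumors and 42.7, 40.6 and 7.82 in resistant tumors. The arrays without spike-in signal stood far above the others in each group. Its changes were -1.66 ± 0.81 and -0.70 ± 0.81, and when the model blocked on the spike-in set the gene was called lower in both (adjusted p = 0.00029 and 0.00126). Without tumor 1, Ifi203 was called in tumors (-2.36, adjusted p = 0.0359). Ifi35, which encodes a partner of NMI, had log2 differences of 0.50 ± 0.22 (adjusted p = 0.0949) in tumors and -0.04 ± 0.22 (adjusted p = 0.892) in resistant tumors. It was called higher in tumors when blocking on the spike-in set (adjusted p = 0.00247) and without tumor 1 (0.75, adjusted p = 0.00736). Parp14, an ADP-ribosyltransferase, had log2 differences of 0.12 ± 0.24 and 0.00 ± 0.24, and Xaf1, which encodes a binding partner of the apoptosis inhibitor XIAP, had -0.33 ± 0.20 and 0.08 ± 0.20.

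**Figure D2:**
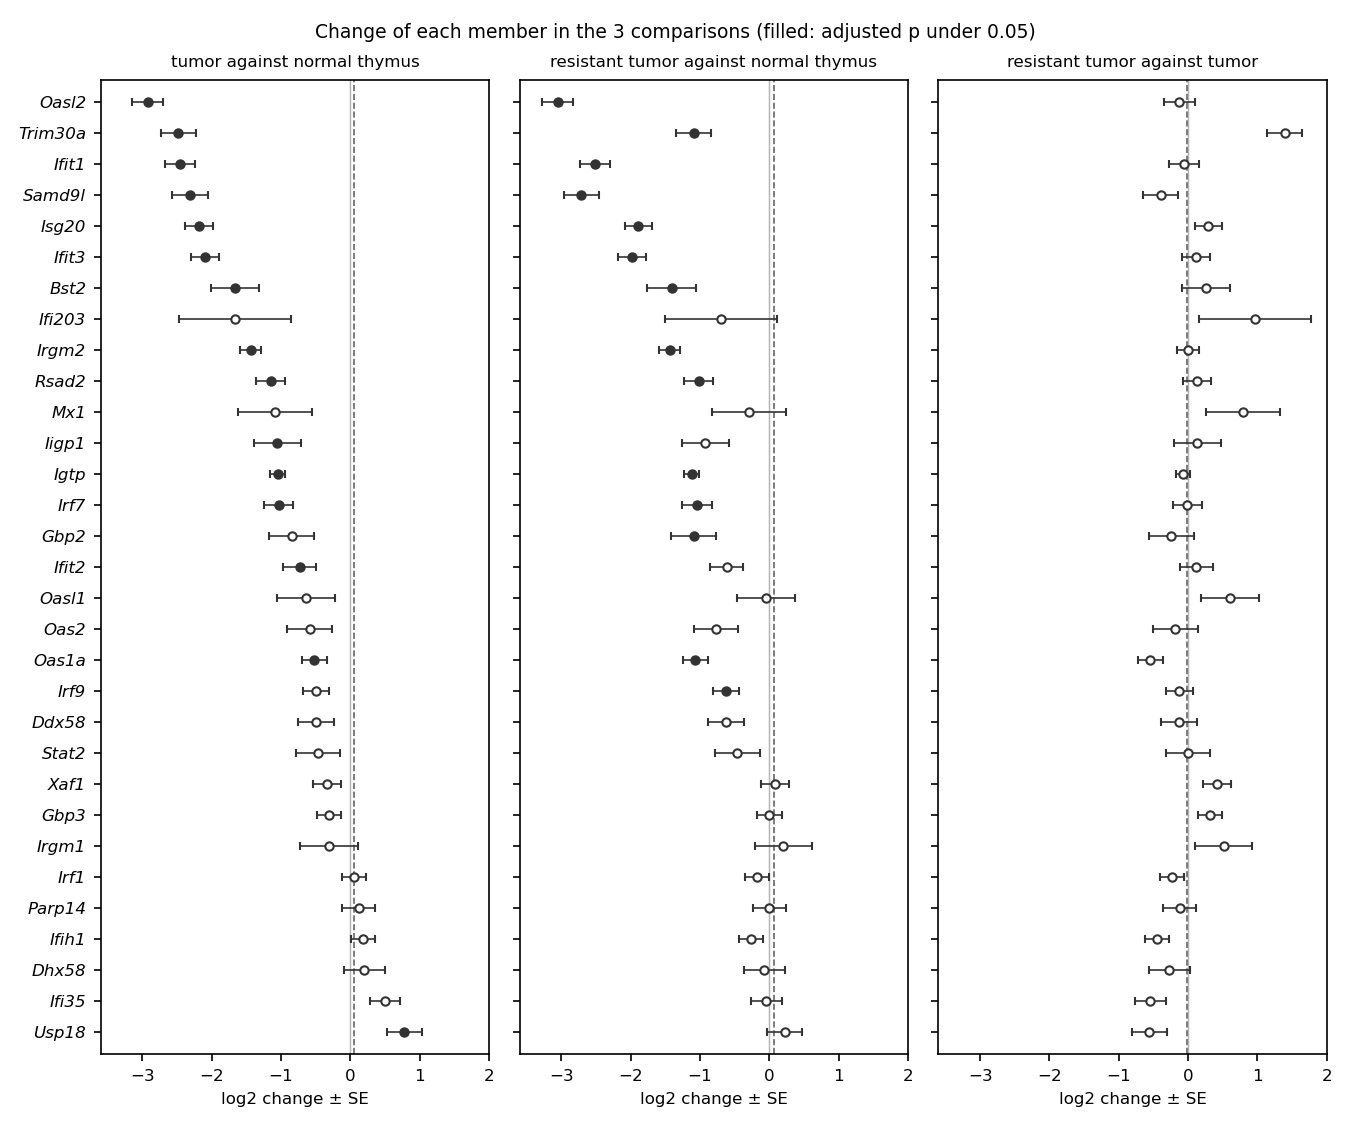
Log2 change with its SE for each of the 31 tested members in the 3 comparisons, ordered by the change of tumor against normal thymus, with filled points for an adjusted p under 0.05 by limma and a dashed line at the median of all tested genes. In the first 2 panels 15 and 14 members are filled, all but Usp18 to the left of 0, and in the third panel none is filled and Trim30a lies farthest to the right.

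The 7 members Ifit1, Ifit3, Oasl2, Isg20, Samd9l, Irgm2 and Trim30a kept their calls in every alternative setting in which they were tested, in both tumor groups. Setting all array medians equal ended the calls of Irf7, Oas1a, Rsad2, Bst2 and Igtp in both comparisons, with adjusted p-values of 0.0525 to 0.620, and those of Usp18 and Ifit2 in tumors and of Irf9 and Gbp2 in resistant tumors. It moved the median change of all tested genes in tumors from 0.05 to 0.24. There 19.6% of all tested genes were called in tumors and 17.4% in resistant tumors, against 42.4% and 43.3% in the main fit. The sign of each called member was shared by the arrays with and those lacking spike-in signal, which the lack of overlap between the groups already fixes for all of them.

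No member passed the test between resistant tumors and tumors. None of the 31 tested members was called by limma, where 0.36% of all tested genes were (0.231% lower and 0.129% higher). An unadjusted p under 0.05 was reached by 4 members, for which no share of all tested genes was taken. The members' median log2 change was -0.01, beside -0.02 for all tested genes, and it was 0.04 in the arrays lacking spike-in signal and -0.05 in those carrying it. The groups did not overlap in 4 of 31 members, beside 10.4% of all tested genes, Ifih1 and Oas1a being lower in resistant tumors (6.01% of all tested genes) and Gbp3 and Trim30a higher (4.41%). For 23 of the 31 members the 95% interval of the difference lay within 1 log2 unit of 0 on either side. It was -0.54 to 0.43 for Ifit1, -0.34 to 0.56 for Ifit3, -0.63 to 0.37 for Oasl2, -0.34 to 0.35 for Irgm2 and -0.31 to 0.17 for Igtp. The interval was wide for Ifi203, at -0.85 to 2.77, and for Mx1, at -0.40 to 1.99. With limma's array weights 11 members were called, 7 lower and 4 higher, where 13.4% of all tested genes were called, 7.09% lower and 6.31% higher. These weights ranged from 0.267 to 4.22.

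Trim30a had the largest difference between the tumor groups. Resistant tumors read 133, 138 and 99.5 and tumors 67.0, 31.3 and 47.8, without overlap. The difference was 1.39 ± 0.25 on the log2 scale, higher in resistant tumors, with an adjusted p of 0.0672 by limma. It was 1.01 in the arrays lacking spike-in signal and 1.36 in those carrying it. Blocking on the spike-in set gave 1.26 (adjusted p = 0.0177), and Trim30a was then the 1 member called of 31, where 1.23% of all tested genes were called, 0.703% lower and 0.523% higher. It was also called without tumor 1 (1.66, adjusted p = 0.0255) and without resistant tumor 3 (1.54, adjusted p = 0.0474), and in 7 of 20 settings in all, with adjusted p-values from 0.00153 to 0.274. A second probe set of Trim30a gave a smaller difference of 0.40 ± 0.20 (adjusted p = 0.951 over all probe sets).

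**Figure D3:**
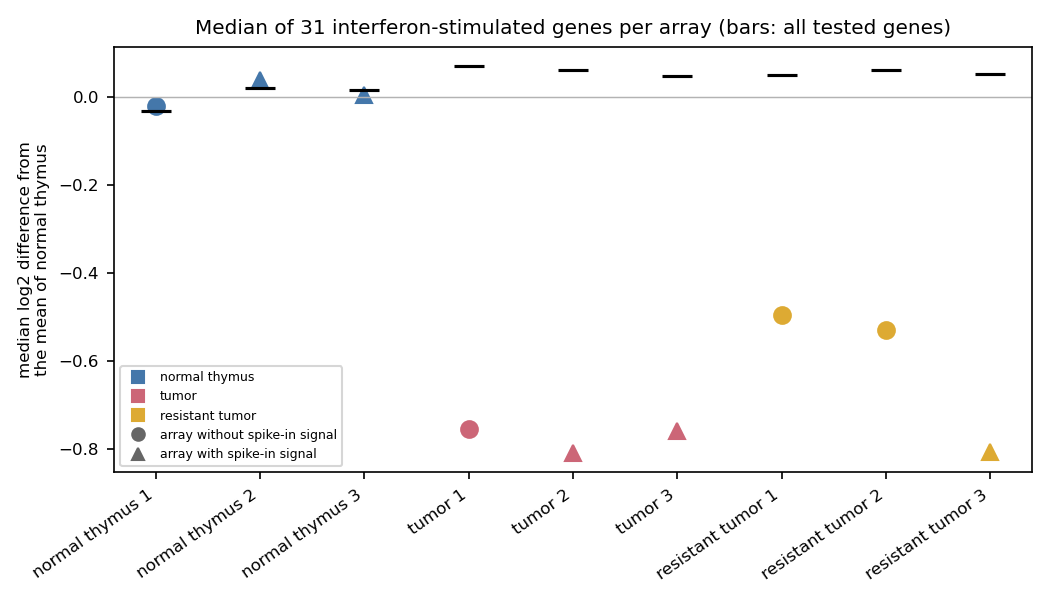
Median over the 31 tested members of the log2 difference from the mean of normal thymus, per array, with a bar for the same median over all tested genes. Normal arrays lie between -0.02 and 0.04, tumors between -0.81 and -0.75 and resistant tumors between -0.81 and -0.50, while the bars stay between -0.03 and 0.07.

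Per array, the members' median stood apart from that of all tested genes on each tumor array. It was -0.75, -0.81 and -0.76 in tumors and -0.50, -0.53 and -0.81 in resistant tumors. The 2 resistant arrays without spike-in signal were the highest of the 6, and resistant tumor 3, with spike-in signal, was level with the tumors.

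Where a member had several probe sets, the brightest past the filter stood for it. The 15 member probe sets not read in this way, the sole probe set of Mx2 among them, were fitted over all probe sets without a filter. Of these 15, 4 were called in each comparison with normal thymus, beside 18.5% of all probe sets in either comparison, and none between the tumor groups, beside 0.0178%. Second probe sets of Gbp2 (-0.99 ± 0.16 and -0.75 ± 0.16), Iigp1 (-1.60 ± 0.29 and -1.41 ± 0.29) and Trim30a (-1.66 ± 0.20 and -1.25 ± 0.20) fell in tumors and in resistant tumors. A second probe set of Xaf1 rose instead, by 2.30 ± 0.32 (adjusted p = 0.00181) in tumors and 2.14 ± 0.32 (adjusted p = 0.00265) in resistant tumors, from a mean signal of 11.5 in normal thymus to 55.1 and 50.5. The probe sets of Xaf1 thus disagreed, and its direction is uncertain. Gbp2 was read from a probe set of the x type and Ifi35 from one of the s type, names that Affymetrix gives to sets whose probes can match more than 1 transcript.

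Interferon genes themselves gave low signals on these arrays. Of 10 listed ligand genes, 4 had no probe set of their own (Ifnk, Ifne, Il28a and Il28b), and none of the 6 measured passed the filter on low values. Ifnb1 had signals of 18.1, 3.996 and 6.24 in normal thymus, 14.2, 5.44 and 3.40 in tumors and 14.3, 18.9 and 6.64 in resistant tumors. Ifng, the type II interferon gene, did not exceed 3.29 on any array. No change can be read at these levels.

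Most tested receptors and kinases fell in both tumor groups. Of 8 tested genes of the list 6 fell and none rose in tumors and in resistant tumors. Among all tested genes 19.1% fell and 23.3% rose in tumors, and 20.2% fell and 23.1% rose in resistant tumors. The medians of the list were -0.72 and -0.75, beside 0.05 and 0.06 for all tested genes. Ifngr1, the ligand-binding chain for interferon gamma, had signals of 1192, 1006 and 1059 in normal thymus, 235, 247 and 230.0 in tumors and 338, 319.7 and 407 in resistant tumors. Its groups did not overlap. The change was -2.19 ± 0.12 (adjusted p = 1.45e-06) in tumors and -1.62 ± 0.12 (adjusted p = 9.12e-06) in resistant tumors. Il10rb, a chain shared by the receptors for interferon lambda and interleukin 10, had signals of 185, 194 and 208 in normal thymus, 43.8, 43.0 and 47.1 in tumors and 59.4, 40.03 and 68.3 in resistant tumors. Its change was -2.13 ± 0.20 (adjusted p = 3.37e-05) in tumors and -1.84 ± 0.20 (adjusted p = 8.11e-05) in resistant tumors. The type I receptor chains had smaller changes, -1.15 ± 0.22 and -1.11 ± 0.22 for Ifnar2 and -0.74 ± 0.14 and -0.76 ± 0.14 for Ifnar1. Jak1 and Jak2, named after their values were seen, were the remaining called genes, with -0.60 ± 0.13 and -0.67 ± 0.13 for Jak1 and -0.65 ± 0.11 and -0.75 ± 0.11 for Jak2. No gene of the list was called between the tumor groups.

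Among signal transducers and other interferon regulatory factors, 3 of 7 tested genes fell in each tumor group and none rose. For all tested genes the shares were 19.1% lower and 23.3% higher in tumors, and 20.2% lower and 23.1% higher in resistant tumors. Irf8, a factor of myeloid and dendritic cells, had signals of 240.3, 296 and 291 in normal thymus, 54.7, 75.5 and 75.6 in tumors and 61.5, 78.7 and 131 in resistant tumors. Resistant tumor 3 was the highest tumor array and still below normal thymus. The change was -2.02 ± 0.26 (adjusted p = 0.000257) in tumors and -1.68 ± 0.26 (adjusted p = 0.000788) in resistant tumors. Irf2, which competes with Irf1 for its sites, had log2 differences of -1.16 ± 0.17 (adjusted p = 0.000534) in tumors and -0.86 ± 0.17 (adjusted p = 0.00287) in resistant tumors, and its corepressor gene Irf2bp2 had -0.89 ± 0.14 and -0.79 ± 0.14.

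Of 9 tested genes that induce interferon, 2 fell and 1 rose in tumors, and 1 fell and 1 rose in resistant tumors. These counts lie near or under the shares of all tested genes. Those were 19.1% lower and 23.3% higher in tumors, and 20.2% lower and 23.1% higher in resistant tumors. Cgas, the cytosolic DNA sensor gene, was the one that rose, with signals of 72.8, 64.9 and 77.0 in normal thymus, 108, 134 and 159.6 in tumors and 126, 143 and 242 in resistant tumors. Its change was 0.89 ± 0.25 (adjusted p = 0.0152) in tumors and 1.19 ± 0.25 (adjusted p = 0.00355) in resistant tumors. Ikbke, a kinase that activates IRF factors, had log2 differences of -0.94 ± 0.34 (adjusted p = 0.048) in tumors and -1.28 ± 0.34 (adjusted p = 0.0129) in resistant tumors. Tlr3, an endosomal receptor for double-stranded RNA, was at least 1.36-fold lower in tumors (adjusted p = 0.0367). This bound sets the mean of normal thymus against the array median of the tumor arrays, all 3 of which lay below it.

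Of 9 tested negative regulators, 2 fell and 1 rose in each tumor group. These counts lie near or under the shares of all tested genes. Those were 19.1% lower and 23.3% higher in tumors, and 20.2% lower and 23.1% higher in resistant tumors. Socs1, an inhibitor of Janus kinases that interferon induces, had signals of 187, 381 and 403 in normal thymus, 49.8, 55.1 and 75.4 in tumors and 101, 59.9 and 70.5 in resistant tumors. Every tumor array was below normal thymus 1, itself the lowest normal array. Its change was -2.37 ± 0.32 (adjusted p = 0.000284) in tumors and -2.03 ± 0.32 (adjusted p = 0.000738) in resistant tumors. Socs3, the inhibitor of interleukin 6 signalling, went the other way, with signals of 189.8, 166 and 145 in normal thymus, 1032, 806 and 1263 in tumors and 1467, 1150.0 and 1462 in resistant tumors. The change was 2.61 ± 0.18 (adjusted p = 5.17e-06) in tumors and 3.02 ± 0.18 (adjusted p = 2.82e-06) in resistant tumors. Samhd1, which depletes deoxynucleotides, had log2 differences of -2.29 ± 0.18 (adjusted p = 1.03e-05) in tumors and -2.17 ± 0.18 (adjusted p = 1.46e-05) in resistant tumors. No gene of the transducer, induction or regulator lists was called between resistant tumors and tumors.

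**Figure D4:**
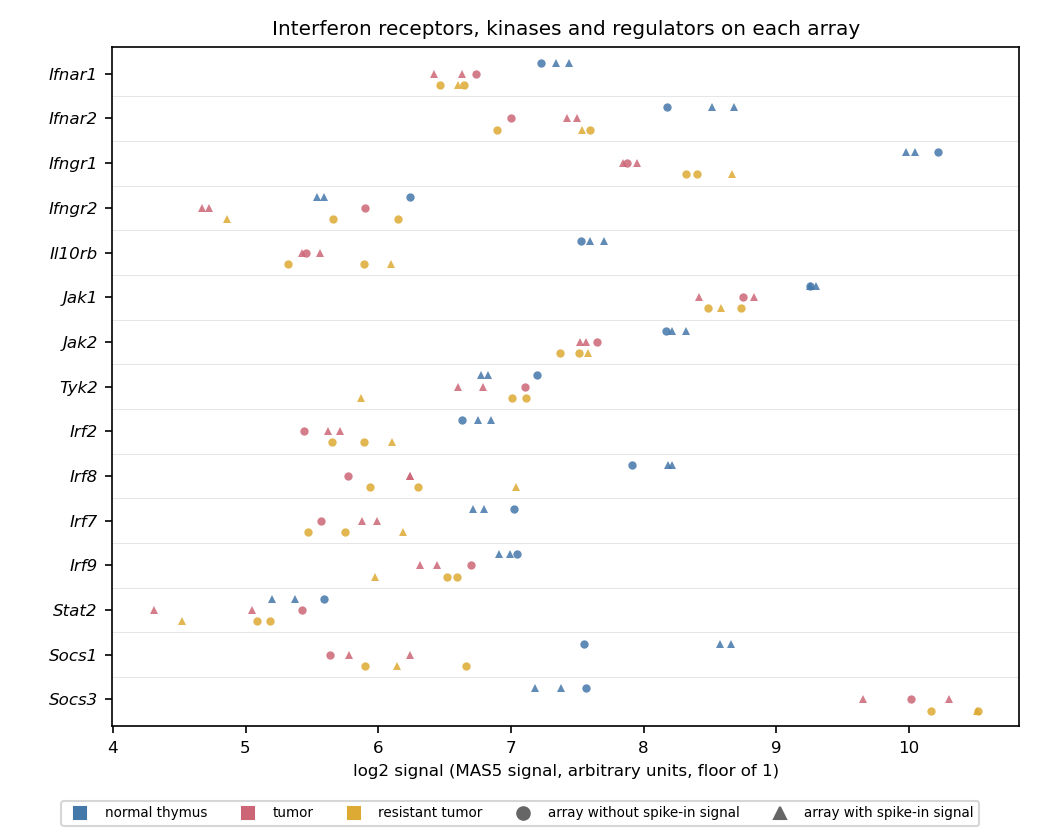
Log2 signal (arbitrary units) of interferon receptor, kinase, regulatory factor and SOCS genes on each of the 9 arrays, coloured by group, with circles for arrays without and triangles for arrays with spike-in signal. Ifngr1, Il10rb, Irf8 and Socs1 are lower and Socs3 is higher on all 6 tumor and resistant tumor arrays than on the 3 normal arrays, while Ifngr2 and Tyk2 overlap.

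A further list of 48 interferon-stimulated genes outside the member set had 37 tested genes. In tumors 15 fell and 5 rose, with a median of -0.36, beside 19.1% of all tested genes lower and 23.3% higher. In resistant tumors 16 fell and 7 rose, with a median of -0.47, beside 20.2% lower and 23.1% higher. Gbp6, a guanylate-binding protein gene, had signals of 353, 503 and 483 in normal thymus, 36.1, 43.5 and 37.5 in tumors and 53.3, 56.4 and 58.6 in resistant tumors. The groups were far apart, with a change of -3.50 ± 0.17 (adjusted p = 8.03e-07) in tumors and -2.98 ± 0.17 (adjusted p = 2.15e-06) in resistant tumors. Cxcl10, a chemokine induced by interferon gamma, was at least 6.42-fold lower in tumors (adjusted p = 2.27e-05) and at least 5.41-fold lower in resistant tumors (adjusted p = 4.03e-05). Slfn1, a Schlafen family gene, was at least 2.60-fold and 2.19-fold lower (adjusted p = 0.00102 and 0.00115), with signals of at most 1.46 on all 6 tumor arrays. Sp100, a nuclear body component, had log2 differences of -2.92 ± 0.21 (adjusted p = 5.93e-06) in tumors and -2.70 ± 0.21 (adjusted p = 1.01e-05) in resistant tumors. The chemokine gene Cxcl11 was at least 1.34-fold lower in resistant tumors (adjusted p = 0.00887). Parp12, singled out after its value was seen, rose from 94.6, 119 and 131 to 392, 433 and 443 and 393, 381 and 385, by 1.89 ± 0.13 (adjusted p = 6.09e-06) in tumors and 1.76 ± 0.13 (adjusted p = 1.01e-05) in resistant tumors. None of the 37 was called between the tumor groups.

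The promoter table held 27 of the 34 members. A match to the response element lay in the 250 bases before an annotated start of 14 of these 27 (51.9%), against 936 of 27025 genes in the table (3.46%). A match to the gamma-activated site TTCNNNGAA, also searched on both strands, lay in 7 of 27 (25.9%), against 8.13% of all genes. Among the tested members in the table, the response element matched in 9 of the 15 that were called lower in at least 1 tumor group and in 4 of the 10 that were not. For the 33 further interferon-stimulated genes in the table the share was 39.4%. In Bst2 the stretch of response elements overlaps a gamma-activated site match. Members with a match thus included both called genes, such as Ifit1 at -2.46 and -2.51, and uncalled ones, such as Gbp3 at -0.31 and 0.00 in tumors and resistant tumors. Oasl2 and Samd9l, among the largest changes, had no match to either motif in this window.

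**Figure D5:**
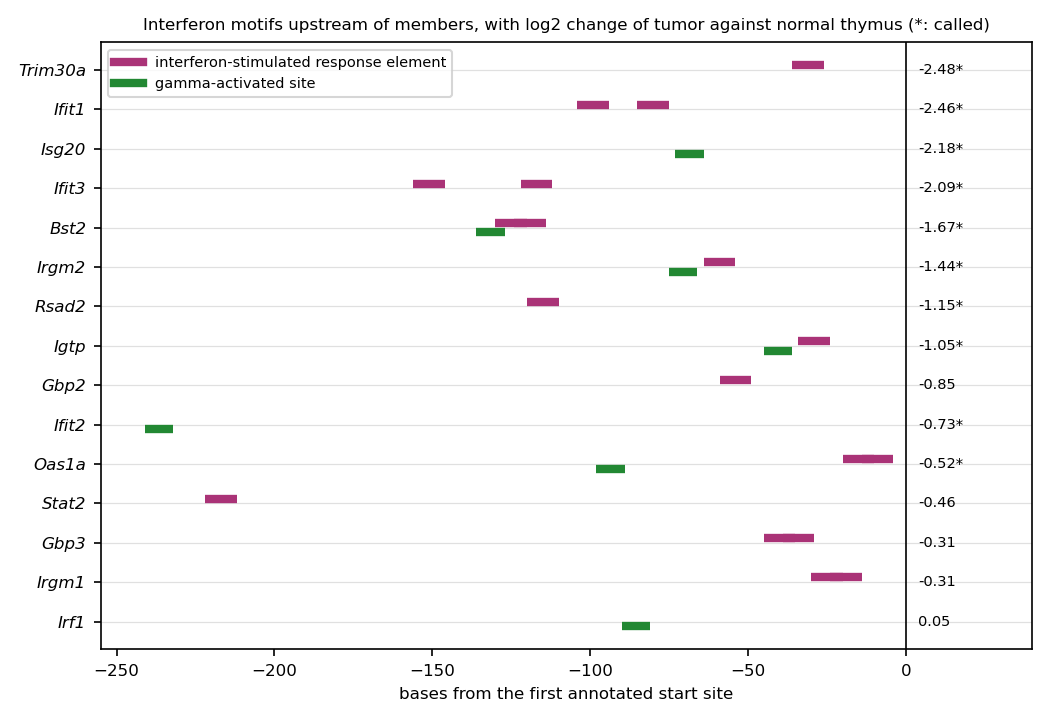
Positions of matches to the interferon-stimulated response element (purple) and the gamma-activated site (green) in the 250 bases before the first annotated start of each tested member with a match, ordered by its log2 change of tumor against normal thymus, which is printed on the right with an asterisk where called. Matches of Trim30a, Igtp and Oas1a lie close to the start, and Gbp3 and Irgm1 carry response elements without an asterisk.

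Markers of several cell types a thymus holds were lower in the tumor groups, as many members were. Of 8 markers each of fibroblasts and of endothelium 4 or 5 were higher, and most macrophage markers were not called. The marker counts below stand beside 19.1% of all tested genes called lower and 23.3% called higher in tumors. In resistant tumors these shares were 20.2% and 23.1%. Thymic epithelial markers fell in 9 of 10 tested genes in each tumor group. Their summed signal was 7258 to 7785 in normal thymus, 111 to 351 in tumors and 119 to 174 in resistant tumors, and Foxn1, Psmb11, Aire and Pax1 lay below the array median on all 6 tumor arrays. Conventional dendritic cell markers fell in 6 of 7 and 5 of 7, with summed signals of 674 to 731, 76.2 to 127 and 94.9 to 127, and Flt3, Zbtb46, Batf3 and Cd83 lay below the array median on all 6. Cd83 made up most of the normal sum, at 394, 478 and 460. Markers of plasmacytoid dendritic cells, Bst2 among them, fell in 6 and rose in 2 of 9 in tumors and fell in 4 and rose in 2 in resistant tumors. Their sums were 3399 to 3746, 982 to 1067 and 1018 to 1176, with Siglech below the array median on all 6. In normal thymus Siglech read 30.5, 22.3 and 20.5, near the array medians of 25.8, 17.8 and 17.0. Most of the sum in normal thymus was Ccr9, at 2588, 2734 and 2846, which read at most 76.2 on the tumor arrays. The fall of the sum thus mostly followed Ccr9, and bulk tissue does not show which cells carried it. Tcf4 went the other way, from 275, 295 and 274 to 776, 739 and 689 in tumors and 821, 699 and 674 in resistant tumors. Klk1 also read higher on all 6 tumor arrays than in normal thymus.

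Mature T cell markers fell in 7 and 6 of 8, from summed signals of 1649 to 1788 to 253 to 316 and 305 to 426. Macrophage markers fell in 2 of 10 in each comparison, near the 19.1% and 20.2% of all tested genes called lower. Their sums overlapped, at 1813 to 2291 in normal thymus, 1166 to 1982 in tumors and 1272 to 2382 in resistant tumors. Thymocyte markers fell in 6 and rose in 1 of 9, with sums of 13419 to 14594, 8853 to 9152 and 7464 to 9327. Fibroblast markers rose in 4 and 5 of 8, and 1 fell in resistant tumors. Markers of B cells fell in 4 and 1 of 4, of neutrophils in 6 and 4 of 7, and of cytotoxic cells in 4 and 3 of 6 with 1 higher. The cytotoxic sum did not fall, at 1209 to 1334 in normal thymus, 1183 to 2088 in tumors and 2497 to 3600 in resistant tumors. Most of it was Gzma, the gene called higher. It read 778, 695 and 732 in normal thymus, 1276, 1147 and 2043 in tumors and 2623, 2389 and 3532 in resistant tumors. Endothelial markers rose in 5 and fell in 1 of 8 in each comparison. None of these markers was called between resistant tumors and tumors. The part of these cell types in the members' changes was not tested.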

How the data were processed

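Total RNA from 9 mouse tissue samples was hybridised to the Affymetrix Mouse430_2 array. The authors deposited 1 linear intensity value for each probe set on each array, computed with MAS5 according to the submitters' processing notes. Neither the version of MAS5 nor detection calls are stated in the labels. The trimmed mean was 100.03 on every array. The table held 45101 probe sets, 64 of them control rows, which stood in another order in tumor 1 and were sorted by name before spike-in signals were read over 24 rows.

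Values under 1 were set to 1 before the log2 step, and the arrays were not normalized again. Each gene was read from its brightest probe set (by mean log2 signal) among those past the filter. Group means over the 9 arrays were modelled with limma 3.58.1 (R 4.3.3), using an intensity trend, two-sided tests and Benjamini-Hochberg adjustment over 11671 genes. The model was tested on simulated data. "Called" means an adjusted p under 0.05. Where all 3 arrays of a group read a gene below the array median, the text gives a bound ("at least N-fold"), set against the higher of its own signal and the array median.

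Members and lists were chosen with earlier results of these data known. All members are named, and from each pathway list up to 4 called genes with the largest change. Motifs were searched in RefSeq promoter windows of GRCm38.p6. Alternatives covered normalization, offset, filter, variance model, array weights fitted gene by gene, probe set rule, spike-in set, replicate number and each array left out.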

Additional observations from a re-analysis of the deposited data

Results flagged for a closer look

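A second probe set of Xaf1 was not the one read for the gene and rose in both tumor groups. Its log2 change was 2.3 ± 0.32 in tumors (limma adjusted p = 0.00181 over all probe sets) and 2.14 ± 0.32 in resistant tumors (adjusted p = 0.00265), while the brightest probe set of Xaf1 was at -0.33 and 0.08. No test of the reason was made.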

How the results depend on the processing

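With 3 arrays per group, the counts of called members depend on the fit. In tumors against normal thymus 15 members were called. That count was 8 with equal array medians, where 19.6% of all tested genes were called, against 42.4% in the main fit. It was 9 with the stricter filter at the 75th percentile, which tested 17 members, beside 45.6% of all tested genes. With array weights it was 25, where 61.8% of all tested genes were called (67.9% in resistant tumors). It ranged from 11 to 18 when 1 array was left out, beside 33.2% to 46% of all tested genes. The members' median of -0.73 was -0.54 with equal array medians, -0.37 with an offset of 50 and -0.88 within the arrays without spike-in signal, and -0.87 to -0.71 with 1 array left out. In resistant tumors against normal thymus the count was 14, beside 43.3% of all tested genes. It was 8 with equal array medians (17.4%) and 9 with the stricter filter (47.4%). Array weights gave 21, and leaving out 1 array gave 12 to 17 (32.7% to 45.5%). Its median of -0.70 was -0.44 with the offset, -0.53 with array weights, -0.81 when blocking on the spike-in set, -0.92 in the arrays lacking spike-in signal, -0.90 in those carrying it, and -0.84 to -0.57 with 1 array left out. Between the tumor groups the count was 0, beside 0.36% of all tested genes. It was 1 with quantile normalization (0.386%), with the offset (0.446%) and when blocking on the spike-in set (1.23%). Array weights gave 11 (13.4%), and leaving out 1 array gave 0 to 1 (0.0685% to 0.6%). In each of these cases with 1 call the gene was Trim30a. This median of -0.01 was -0.26 with equal array medians, where that of all tested genes was -0.26 too, and -0.12 with the stricter filter. The cause of these shifts was not tested. The stricter filter also left fewer members to test.

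Replicate numbers in the titles do not state a pairing. Deviations from the group means correlated at 0.371 to 0.654 for 7 pairs of same-numbered arrays, and at -0.337 and -0.301 for resistant tumor 2 with normal thymus 2 and tumor 2, so the numbers were not taken to pair the samples. With the replicate number as a block, 20 members were called in tumors (18 lower, 2 higher), 17 in resistant tumors, and 1, Trim30a, between the tumor groups, beside 51.1%, 52.1% and 0.788% of all tested genes.

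No sign reversal was seen for a called member in any alternative. For single members, 52 calls were lost and 78 gained over the comparisons and settings.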
